A study of Mus musculus with 4 samples.

Results

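The 33 genes described here encode the extracellular matrix of the pancreatic islet and mark the cells that build it, the stellate cells, fibroblasts and pericytes. They were chosen by name from a list of collagens, other matrix genes and mesenchymal markers, and all 33 symbols were found among the 52636 genes of the deposited table. Islets are the hormone-secreting clusters of the pancreas. Whole islets were taken from wild-type control mice (2 libraries) and from Tspan7 knockout mice of genotype Tspan7 y/- (2 libraries), which lack an X-linked gene of the tetraspanin family of membrane proteins. The labels give no age and no strain, name no treatment for either group, and do not say whether each library came from its own animal, so p-values measure the spread between these libraries, which may be technical. The genotype is that of the animal, and the labels name no cell type to which the deletion is limited. The labels call the sample type pancreatic islets, a mixture of endocrine, endothelial, immune and mesenchymal cells.

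An islet is wrapped in a thin capsule and threaded by capillaries. Endothelial cells and the pericytes around them share a basement membrane of type IV collagen, laminin and nidogen, and beta cells rest against it. Stellate cells and fibroblasts lay down the interstitial matrix of fibrillar collagens, collagen VI, fibronectin and small proteoglycans, while pericytes and smooth muscle cells carry contractile proteins and regulate capillary flow. In bulk islet RNA, fewer cells of a type and less RNA per cell cannot be told apart.

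Library totals ran from 7855665 to 9377220 counts, and the 33 genes together took between 0.0480% and 0.0725% of a library, or 4025 to 6626 counts. Tspan7 itself, at 1924 and 1795 counts in controls against 3 and 2 in knockouts, matched the labels. A count of 3, used as the detection floor, corresponded to 0.312 to 0.398 CPM, counts per 1000000 after scaling. The level of a gene is given below as scaled CPM in control replicates 1 and 2 and then knockout replicates 1 and 2. Log2 fold changes are knockout against control with a standard error (SE) from edgeR's quasi-likelihood fit to all genes, with calls made where the Benjamini-Hochberg adjusted p was under 0.05.

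Promoter windows from RefSeq (build GRCm38.p6) were found for 22 of the 33 genes, in 24 windows. The windows of 3 genes are shown because the results turn on them, namely Sparc, with the smallest p among the 33 genes, Vim, the only one called under any setting tried, and Rgs5, the most abundant one. Each is the 250 bases before the annotated start on the gene's own strand, and capitals mark matches on either strand to 4 motifs. The usual core promoter box was searched as TATAAA, and a variant of this core promoter element was searched separately as TATATA. The binding motif of nuclear factor Y was searched as CCAAT, and the GC-rich binding motif of Sp1 and related factors was searched as GGGCGG. The coordinates belong to GRCm38.p6 and not to GRCm39, the build named for the counts.
Sparc, chr11:55420081-55420330, minus strand: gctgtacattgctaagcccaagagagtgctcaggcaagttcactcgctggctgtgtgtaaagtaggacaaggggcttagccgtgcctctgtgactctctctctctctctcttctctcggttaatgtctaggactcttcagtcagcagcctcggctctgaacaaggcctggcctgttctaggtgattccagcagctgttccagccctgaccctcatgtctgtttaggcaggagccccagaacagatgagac
Vim, chr2:13574061-13574310, plus strand: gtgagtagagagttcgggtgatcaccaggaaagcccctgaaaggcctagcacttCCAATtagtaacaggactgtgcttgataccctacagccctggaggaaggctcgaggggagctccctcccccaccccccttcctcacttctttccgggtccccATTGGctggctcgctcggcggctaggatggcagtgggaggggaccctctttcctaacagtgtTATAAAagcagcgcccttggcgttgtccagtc
Rgs5, chr1:169655251-169655500, plus strand: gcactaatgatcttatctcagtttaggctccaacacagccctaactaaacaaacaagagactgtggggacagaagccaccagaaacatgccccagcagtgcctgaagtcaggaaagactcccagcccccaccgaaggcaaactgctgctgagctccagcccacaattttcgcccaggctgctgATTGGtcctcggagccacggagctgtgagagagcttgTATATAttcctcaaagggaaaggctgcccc

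In Vim the TATAAA match begins 32 bases before the start and the nearer CCAAT match 94 bases before it. In Rgs5 the TATATA match begins 30 bases and the CCAAT match 67 bases before the start. The Sparc window holds none of the 4 motifs. Over the 24 windows, 13 held GGGCGG, 8 held CCAAT, 3 held TATAAA and 2 held TATATA. Among all 32851 windows of the same length in the table the shares were 32.7%, 33.8%, 12.4% and 5.25%. The CArG box, the binding motif of serum response factor, was searched only as the exact CCWWWWWWGG, where W is A or T. It was in 0 of the 24 windows and in 1.47% of all. Variants with another letter in place of a W were not searched, and Tagln had no window, so boxes in the contractile genes could be missed. These matches describe letters only, and the overlapping letters of TATAAA and TATATA can be counted under both. Col4a1 and Col4a2, the chains of the commonest type IV collagen, lie head to head on opposite strands, and their annotated starts overlap. The 22 bases that lie in the first exons of both are shown because they show how closely the pair sits, on the plus strand at chr8:11312805-11312826 of GRCm38.p6.
Col4a1/Col4a2: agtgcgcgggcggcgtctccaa

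Most of the matrix genes measured lower in the knockout libraries than in the controls, and none passed the threshold. Of the 33 genes, 29 passed the filter on low counts, and 25 of these had a negative log2 fold change against 4 with a positive one. The median was -0.53, beside 0.003 over all 16924 genes tested, of which 49.4% had a negative value. No member was called in either direction, and over all genes only Tspan7 was (0.00591% called, all lower, by edgeR). The adjusted p of every tested member was 0.9997 or higher in edgeR's quasi-likelihood test. At an unadjusted p under 0.05, 7 of the 29 were lower and 0 higher, where 1.96% of all genes were lower and 1.55% higher. In 18 of the 29 the highest knockout library was below the lowest control library, which held for 15% of all genes tested, and in 2 the lowest knockout library was above the highest control library, as in 15.3% of all genes. Members that vary together across libraries can take such an order at once, so each count stands for fewer separate observations than it has genes.

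The size of this difference depended on control replicate 2. In 25 of the 29 tested members this library had the highest level of the 4, while it did so in 28.0% of all genes. Relative to the mean of the 4 libraries, the median member stood at 0.06 and 0.41 (log2) in control replicates 1 and 2 and at -0.24 and -0.10 in knockout replicates 1 and 2. The median over all genes tested lay between 0.0038 and 0.011 in each library. Control replicate 1 alone lay above both knockout libraries in 18 of the 29 members, where it did so in 30.4% of all genes, and control replicate 2 in 26, against 34.2% of all genes. With control replicate 2 left out, the median of the 29 was -0.23, with 22 negative and 7 positive values and 2 at an unadjusted p under 0.05. With control replicate 1 left out it was -0.64, with 14 lower and 1 higher at an unadjusted p under 0.05. Without knockout replicate 1 the median was -0.39 with 3 lower, and without knockout replicate 2 it was -0.50 with 7 lower.

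**Figure D1:**
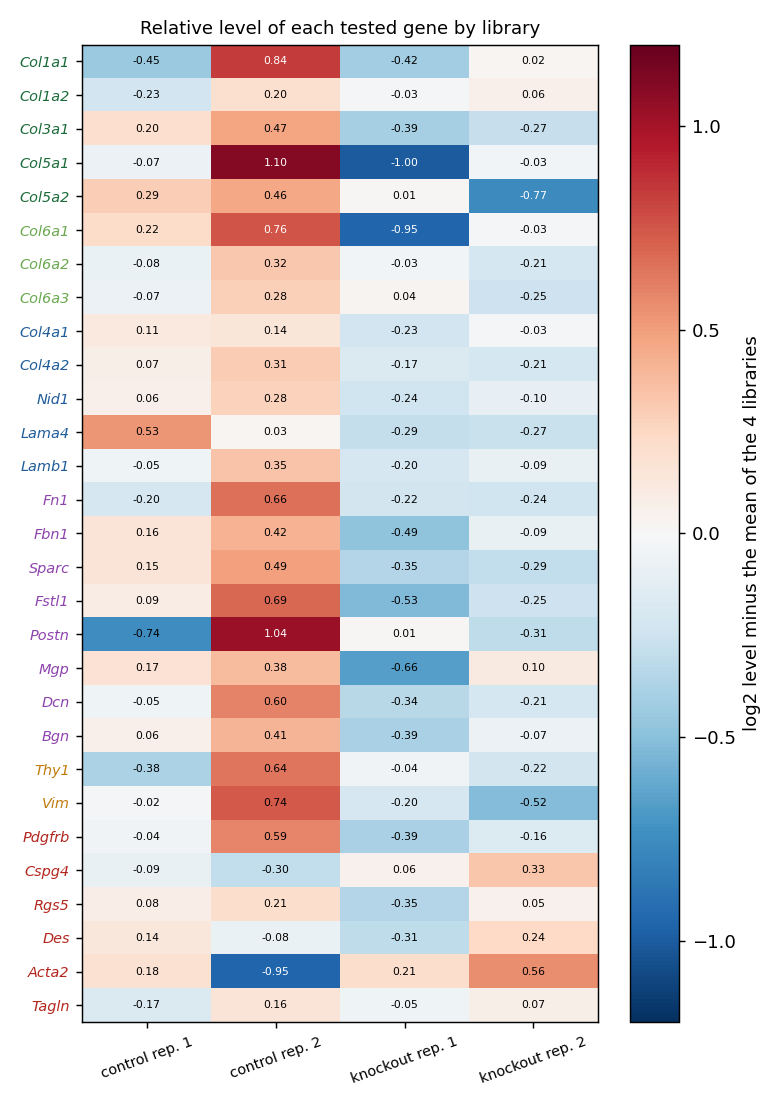
Level of each of the 29 tested genes in each library, as log2 CPM minus the mean of the 4 libraries (color and printed value), with gene names colored by role. Control replicate 2 is the highest library for 25 of the 29 genes, while Acta2 and Cspg4 have their lowest values there.

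Fibrillar collagens form the ropes of the interstitial matrix. Type I is a trimer of the chains encoded by Col1a1 and Col1a2, type III is built from Col3a1 alone, and type V, from Col5a1 and Col5a2, starts the fibrils and sets their width. Of these 5 genes, 4 had negative values, with a median of -0.68, which was -0.41 with 3 negative without control replicate 2. Col3a1 measured 11.6 and 14.0 CPM in control and 7.69 and 8.35 CPM in knockout libraries. The groups did not overlap, and the log2 fold change was -0.68 ± 0.22 (unadjusted p = 0.0145). Its sign was the same with each library left out, from -0.81 to -0.53.

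Col1a1 measured 4.97 and 12.2 CPM in control and 5.09 and 6.89 CPM in knockout libraries. Only control replicate 2 stood apart, at 2.46 times control replicate 1, and the log2 fold change of -0.54 ± 0.43 was 0.26 without that library. Its partner chain Col1a2 gave 6.39 and 8.61 CPM against 7.37 and 7.82 CPM, a log2 fold change of 0.01 ± 0.26 with a 95% confidence interval (CI) of -0.57 to 0.60. The sign of Col1a2 turned without control replicate 1 (-0.18) and without knockout replicate 2 (-0.03). Within a library, the ratio of Col1a1 to Col1a2 counts was 0.778 and 1.42 in control and 0.690 and 0.881 in knockout libraries. The 95% counting interval of the highest, in control replicate 2, was 1.06 to 1.91 (exact binomial), above that of knockout replicate 1 (0.470 to 1.01) but not clear of the other two. The ratio thus varied between the control libraries as much as between the groups.

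The type V chains were scarce. Col5a1 gave 12 and 31 control counts against 7 and 11, or 1.42 and 3.29 against 0.727 and 1.46 CPM. Control replicate 1 lay just below knockout replicate 2, so the groups overlapped at a log2 fold change of -1.15 ± 0.56, the most negative value of the 29, which was -0.41 without control replicate 2. Col5a2 measured 3.67 and 4.14 CPM against 3.01 and 1.72 CPM, with no overlap and a log2 fold change of -0.70 ± 0.37. That value was -1.17 without knockout replicate 1 and -0.38 without knockout replicate 2.

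Collagen VI is a beaded microfibril that links cells to the basement membrane, and its common form holds 1 chain from each of Col6a1, Col6a2 and Col6a3. All 3 had negative values, unequal in size. Col6a1 measured 3.79 and 5.53 CPM in control and 1.66 and 3.18 CPM in knockout libraries, with a log2 fold change of -0.97 ± 0.40 (unadjusted p = 0.0398). The groups did not overlap for Col6a1, which rests on 16 to 52 counts per library, and its value was -0.55 without knockout replicate 1 and -1.48 without knockout replicate 2. Col6a2 gave 3.19 and 4.25 CPM against 3.32 and 2.92 CPM (log2 fold change -0.25 ± 0.32), and Col6a3 gave 7.81 and 9.99 CPM against 8.41 and 6.89 CPM (-0.21 ± 0.25). For both of these the groups overlapped, and without control replicate 2 the values were -0.03 and -0.02.

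All 5 basement membrane genes had negative values, with a median of -0.35. In all 5 the knockout libraries were below both controls, an order that held for 15% of all genes tested. Each kept a negative sign with any 1 library left out, and the median then ran from -0.45 to -0.24. Col4a1 measured 122 and 125 CPM in control and 96.4 and 111 CPM in knockout libraries, a log2 fold change of -0.25 ± 0.14 (95% CI -0.57 to 0.06). Col4a2 gave 52.9 and 62.4 CPM against 44.8 and 43.5 CPM, or -0.39 ± 0.15 (unadjusted p = 0.0292). Without knockout replicate 1 Col4a1 was at -0.15, and without control replicate 2 Col4a2 was at -0.26. The SD within a group (n = 2 each) was 1.65 CPM in control and 10.2 CPM in knockout libraries for Col4a1. For Col4a2 it was 6.71 and 0.909 CPM. The knockout mean was 0.840 of the control mean for Col4a1 and 0.766 of it for Col4a2.

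The ratio of Col4a1 to Col4a2 counts was 2.31 and 1.997 in control and 2.15 and 2.55 in knockout libraries. Its values in the groups overlapped, and the counting interval of control replicate 2 (1.81 to 2.21) did not reach that of knockout replicate 2 (2.24 to 2.90). Where the exons of these head-to-head genes overlap, reads can be assigned to a chain only if counting used the strand, which is not given in the sources used here. Nid1, which encodes the nidogen that ties laminin to type IV collagen, measured 33.8 and 39.4 CPM against 27.5 and 30.2 CPM (log2 fold change -0.35 ± 0.16, and -0.23 without control replicate 2). Lamb1, a laminin beta chain of early and vascular basement membranes, measured 19.8 and 26.0 CPM against 17.8 and 19.2 CPM (-0.31 ± 0.19), and was at -0.10 without control replicate 2. Lama4, the laminin alpha chain typical of vessel walls, gave 16.0 and 11.3 CPM against 9.04 and 9.15 CPM (-0.58 ± 0.24, unadjusted p = 0.0393), and was at -0.31 without control replicate 1. Lama4 was the only tested member that was highest in control replicate 1, where 21.6% of all genes were highest.

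**Figure D2:**
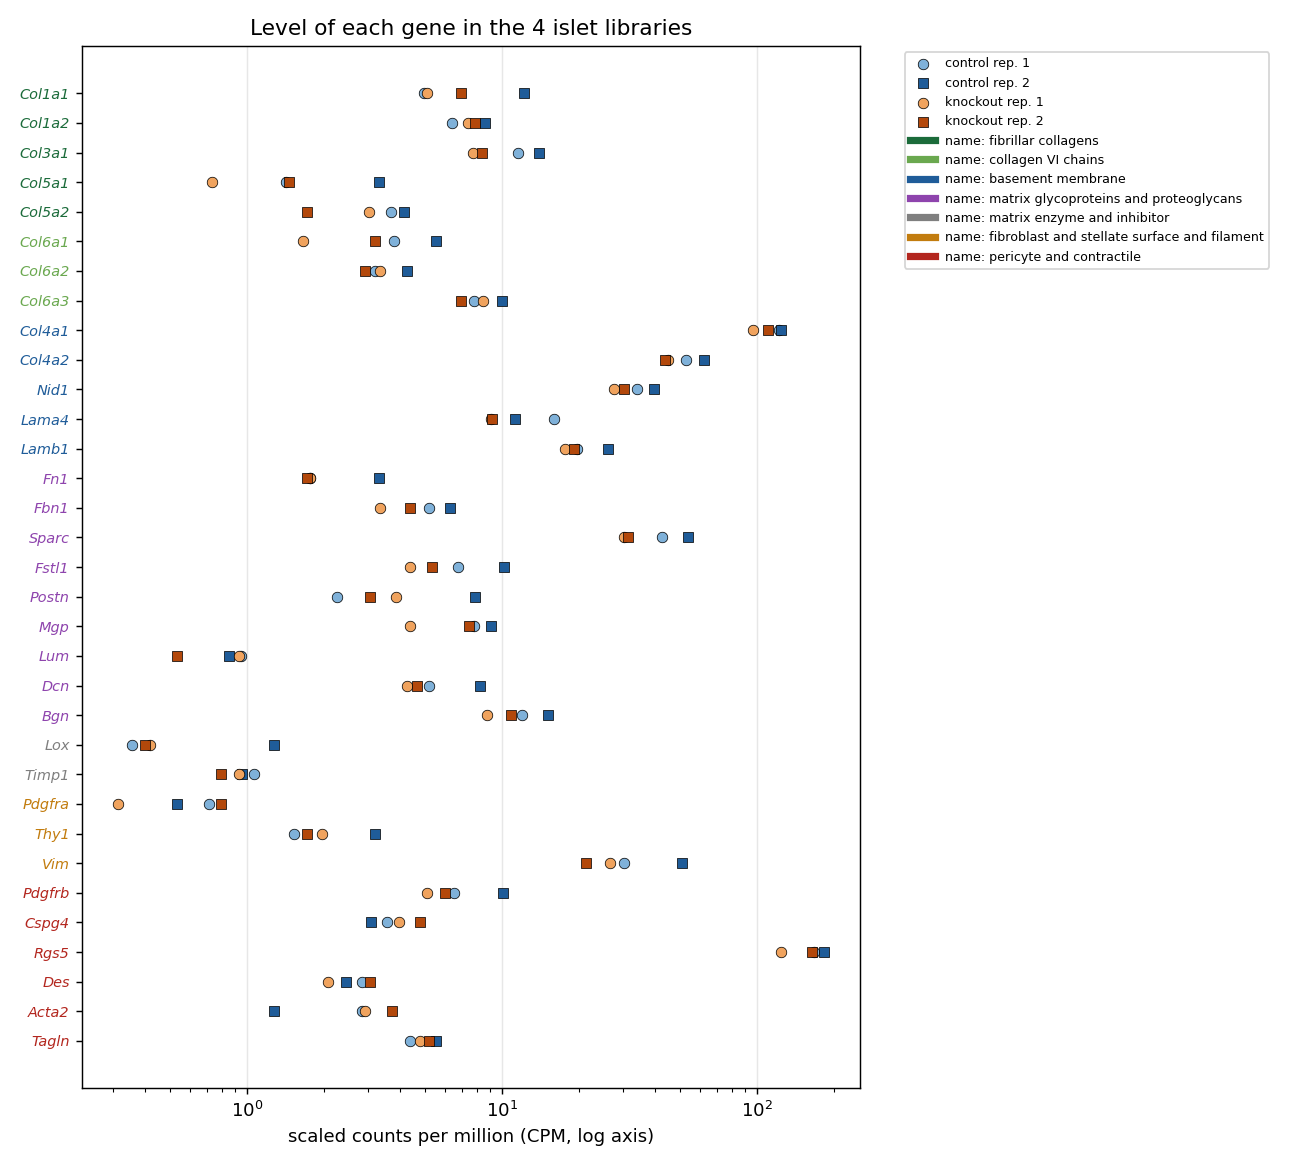
Scaled CPM (log axis) of each of the 33 genes in the 4 libraries, blue for control and orange for knockout, circles for replicate 1 and squares for replicate 2, with names colored by role. Rgs5, Col4a1 and Col4a2 have the highest CPM, while Lum, Lox, Timp1 and Pdgfra lie near 1 CPM or below.

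Glycoproteins and proteoglycans of the matrix had a median of -0.57 over 8 tested genes of 9, all 8 negative. In 7 of the 8 the knockout libraries were below both controls, against 15% of all genes tested. The median was -0.36 with 7 negative without control replicate 2 and -0.85 without control replicate 1. Sparc encodes osteonectin, a collagen-binding protein of remodelling matrix. It measured 42.6 and 54.0 CPM in control and 30.1 and 31.3 CPM in knockout libraries. Both knockout libraries sat close together below both controls, and the log2 fold change was -0.65 ± 0.16 (unadjusted p = 0.00370). Left-out libraries moved it between -0.82 and -0.47.

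Fstl1, a secreted follistatin-like glycoprotein, gave 6.74 and 10.2 CPM against 4.36 and 5.30 CPM, a log2 fold change of -0.82 ± 0.30 (unadjusted p = 0.0242). Its groups did not overlap, and its value was -0.49 without control replicate 2. Fbn1, the fibrillin of elastic microfibrils, gave 5.21 and 6.27 CPM against 3.32 and 4.37 CPM (-0.59 ± 0.30, and -0.39 without knockout replicate 1). Mgp, an inhibitor of matrix calcification, gave 7.81 and 9.03 CPM against 4.36 and 7.42 CPM (-0.53 ± 0.30), and ran from -0.95 to -0.18 as knockout replicate 2 or 1 was left out. For both genes the groups were apart, for Mgp only narrowly.

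Dcn and Bgn encode decorin and biglycan, small leucine-rich proteoglycans that bind collagen fibrils. Dcn measured 5.21 and 8.18 CPM in control and 4.26 and 4.64 CPM in knockout libraries (log2 fold change -0.60 ± 0.31). Bgn measured 12.0 and 15.2 CPM against 8.72 and 10.9 CPM (-0.48 ± 0.23). In both, the controls lay above the knockouts, with control replicate 2 furthest away. Without that library Dcn was at -0.23 and Bgn at -0.29. Fn1, fibronectin, gave 15 and 31 control counts against 17 and 13. Its groups were apart after scaling only by a hair (1.77 CPM in control replicate 1 and in knockout replicate 1), and the log2 fold change of -0.55 ± 0.43 was -0.02 without control replicate 2 and -0.91 without control replicate 1. Postn, periostin, a protein of activated fibroblasts, measured 2.25 and 7.86 CPM against 3.84 and 3.05 CPM (-0.56 ± 0.55). Control replicate 1 was its lowest library and control replicate 2 its highest, 3.50 times as high, and without replicate 2 the value was 0.62.

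The 4 genes that failed the filter on low counts were Lum, Lox, Timp1 and Pdgfra. Lum, which encodes the proteoglycan lumican, gave 8 and 8 counts against 9 and 4, so that the knockouts stood at 84.5% of the controls (95% exact binomial interval for counting error 37.4% to 187%). Lox, the enzyme that cross-links collagen, gave 3 and 12 against 4 and 3 counts, or 48.5% (16.7% to 126%). Control replicate 2 held most of the Lox counts. Timp1, an inhibitor of matrix metalloproteases, gave 9 and 9 against 9 and 6 counts, or 86.7% (40.7% to 182%). A difference in these genes was not detectable at this depth.

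Surface and filament markers of fibroblasts and stellate cells were uneven in level. Vim encodes vimentin, the intermediate filament of mesenchymal cells, which endothelial and immune cells carry too. It measured 30.3 and 51.1 CPM in control and 26.6 and 21.3 CPM in knockout libraries. The groups did not overlap, and the log2 fold change was -0.76 ± 0.26 (unadjusted p = 0.0204). With no filter on low counts Vim was called lower (-0.75, adjusted p = 0.0182, edgeR), and its adjusted p over the other settings ran from 0.0603 to 1. Its value was -0.34 without control replicate 2 and -1.09 without control replicate 1.

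Thy1, a surface glycoprotein of fibroblasts, neurons and T cells, gave 1.54 and 3.19 CPM against 1.97 and 1.72 CPM. Control replicate 1 was below both knockout libraries, and the log2 fold change of -0.36 ± 0.45 was 0.27 without control replicate 2. Pdgfra, the receptor of platelet-derived growth factor that marks fibroblasts, gave 6 and 5 control counts against 3 and 6, or 85.1% of control (31.2% to 226%). Its knockout libraries therefore stood at 1 to 2 times the detection floor. Of 26 further stellate and fibroblast markers 12 passed the filter on low counts. Among the others, Dpt, dermatopontin, gave 3 and 12 against 1 and 3 counts and Pdpn, podoplanin, 4 and 7 against 0 and 3. Pdgfra, Dpt and Pdpn were thus measured at 12 counts per library or fewer, while the type I and type III collagen genes gave 42 to 132. Dpt and Pdpn were picked among the scarce markers and do not stand for the 26. Together the 26 summed to 67.6 and 83.6 CPM in control and to 68.7 and 55.3 CPM in knockout libraries.

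Pericyte and contractile genes lay on both sides of 0. Of 6 tested genes 3 had negative and 3 positive values, with a median of -0.03, and this median was 0.01 without control replicate 2, 0.14 with knockout replicate 1 left out and -0.20 with knockout replicate 2 left out. The difference between this group and the matrix genes was not tested. Pdgfrb, the receptor that pericytes need to gather on capillaries, measured 6.51 and 10.1 CPM in control and 5.09 and 5.97 CPM in knockout libraries (log2 fold change -0.60 ± 0.30, and -0.24 without control replicate 2). Rgs5, a regulator of G protein signalling that marks pericytes, gave 168 and 184 CPM against 124 and 165 CPM (-0.29 ± 0.17, with -0.09 and -0.50 without knockout replicates 1 and 2). In both the controls were above the knockouts, for Rgs5 by a small gap between control replicate 1 and knockout replicate 2.

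Cspg4 and Acta2 had positive values. Cspg4, the NG2 proteoglycan of pericyte surfaces, gave 3.55 and 3.08 CPM in control and 3.95 and 4.77 CPM in knockout libraries, a log2 fold change of 0.39 ± 0.30 (95% CI -0.31 to 1.09), which was 0.25 without knockout replicate 2. Acta2, smooth muscle actin and the marker of activated stellate cells, gave 2.84 and 1.28 CPM against 2.91 and 3.71 CPM, or 0.69 ± 0.44 (95% CI -0.32 to 1.69). Both knockout libraries were above both controls in each gene, and for Acta2 most of the distance came from control replicate 2, without which the value was 0.21 and without control replicate 1 it was 1.35.

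Des and Tagln showed no detectable difference. Des encodes desmin, the intermediate filament of muscle, pericytes and stellate cells, and measured 2.84 and 2.44 CPM against 2.08 and 3.05 CPM, a log2 fold change of -0.06 ± 0.37 (95% CI -0.90 to 0.79). Its sign turned without control replicate 1 (0.05) and without knockout replicate 1 (0.21). Tagln encodes transgelin, an actin-binding protein of smooth muscle, and measured 4.38 and 5.53 CPM against 4.78 and 5.17 CPM, with a 95% CI of -0.67 to 0.67. Exons of Tagln overlap those of Pcsk7 on the opposite strand, which gave 154 to 191 counts per library, so its counts are uncertain unless counting used the strand.

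**Figure D3:**
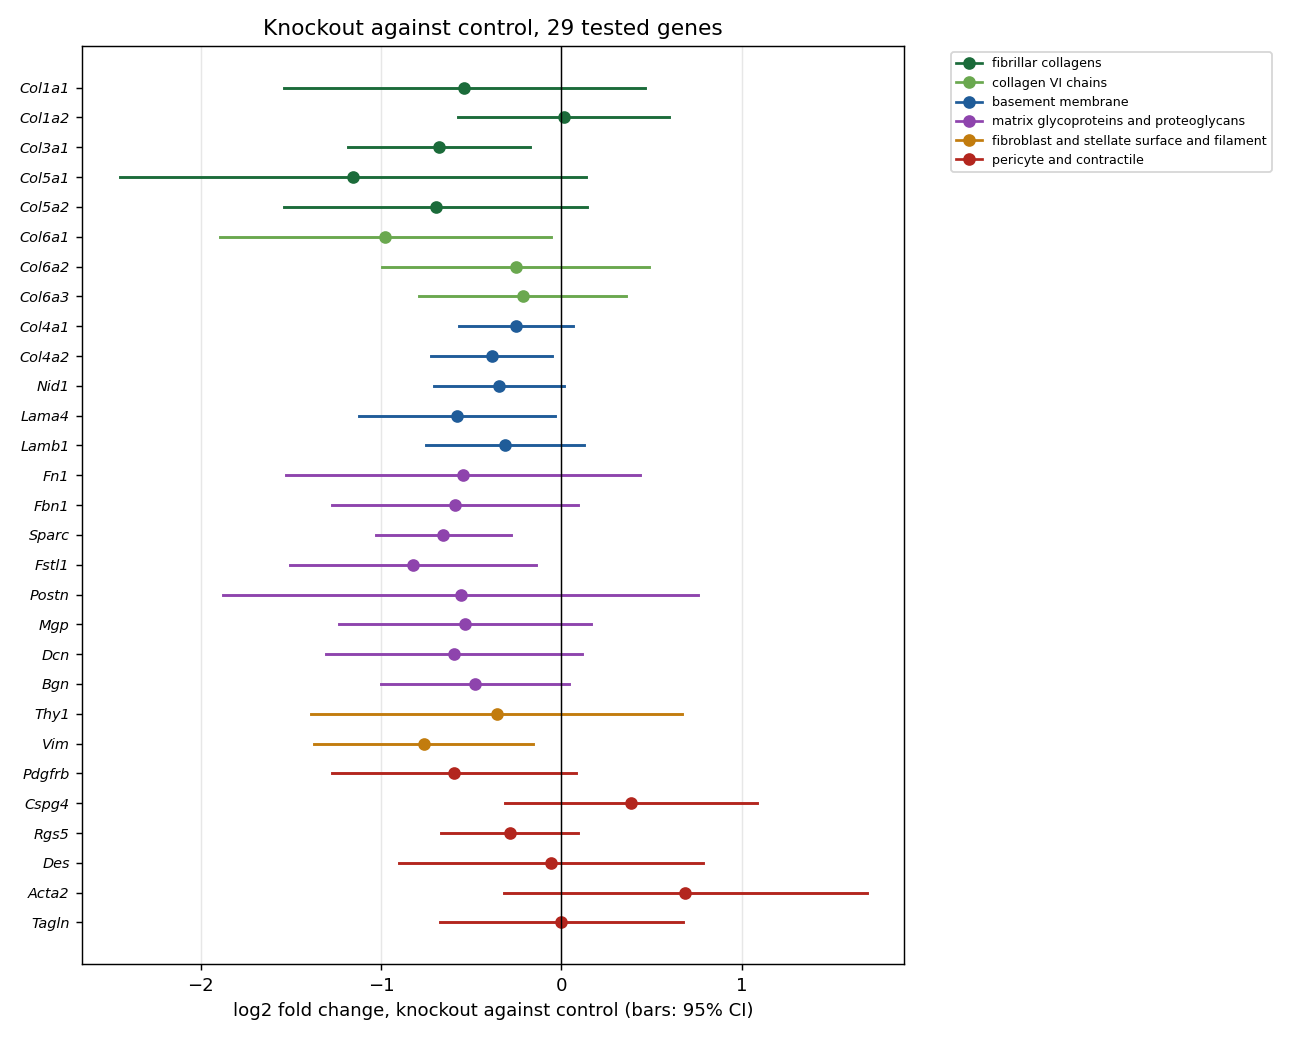
Log2 fold change, knockout against control, of the 29 tested genes with its 95% confidence interval from edgeR's quasi-likelihood fit, colored by role. Points of the matrix groups lie left of 0 except Col1a2, the pericyte and contractile genes lie on both sides, and the intervals of 7 genes, all on the lower side, leave out 0.

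Levels of different genes can be set side by side only per length, so control CPM was divided by the length of the principal transcript in kilobases (kb). Rgs5 came first at 43.0 CPM per kb, followed by Sparc at 21.0, Col4a1 at 18.7, Vim at 18.6 and Mgp at 13.6 CPM per kb. Col4a2 (8.94), Nid1 (6.01), Bgn (5.61), Lamb1 (4.12), Dcn (3.81) and Tagln (3.10) followed in CPM per kb. The fibrillar chains stood lower, with Col3a1 at 2.30, Col1a1 at 1.45 and Col1a2 at 1.40 CPM per kb, and Pdgfra was last at 0.0908 CPM per kb. Both type IV collagen chains, Nid1 and Lamb1 were thus measured above the type I and type III collagens in the control mean, while Lama4, at 2.25 CPM per kb, was just below Col3a1. Rgs5 stood far above the other listed pericyte genes per length, with Pdgfrb at 1.54 CPM per kb in the control mean. In counts not divided by length, Rgs5 gave 18.2 to 27.6 for each count of Pdgfrb, a ratio that overlapped between the groups. Among other pericyte markers, Notch3, a receptor of mural cells, gave 96 to 127 counts per library. Abcc9, a potassium channel subunit, gave 58 to 77, and Kcnj8, its channel partner, gave 3 to 7. These counts were not divided by length. Whether Rgs5 counts came from pericytes alone was not tested.

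Other genes of the matrix were read from further lists, and 0 of them were called in either direction. Genes are named from these lists by smallest p, so the names lean to the larger differences. Of 18 tested further collagens 11 had negative values (median -0.28), of which Col14a1, a fibril-associated collagen, had the smallest p at a log2 fold change of -0.70 ± 0.29. Leaving out control replicate 2 put the median at 0.02, and leaving out knockout replicate 2 put it at -0.03. Of 12 further laminin and basement membrane genes 9 were negative (median -0.28, from -0.28 to -0.15 with each library left out), with Smoc1, a calcium-binding protein of basement membranes, at -0.85 ± 0.29, the laminin chain Lama5 at -0.55 ± 0.23 and the perlecan gene Hspg2 at -0.30 ± 0.14. Hspg2 stood at 60.7 ± 3.57 CPM in controls against 49.3 ± 2.04 CPM in knockouts (SD, n = 2 each). Of 16 further matrix glycoproteins 12 were negative (median -0.26, and -0.15 without control replicate 2). Igfbp5, a secreted binding protein of insulin-like growth factors, had the smallest p among them. It measured 14.7 and 27.3 CPM in control and 14.6 and 13.5 CPM in knockout libraries, and its log2 fold change of -0.58 ± 0.29 was -0.06 without control replicate 2. Smoc1 was at -0.56 without that library.

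The enzymes that make collagen were closer to 0. Of 22 tested genes of collagen synthesis and cross-linking 13 had negative and 9 positive values, with a median of -0.05, which was -0.24 without knockout replicate 2. P3h1, a prolyl hydroxylase, stood at -0.45 ± 0.19 (-0.29 without knockout replicate 1), and the collagen chaperone gene Serpinh1 stood at 16.8 ± 1.81 CPM in controls against 13.4 ± 0.749 CPM in knockouts (SD, n = 2 each), a log2 fold change of -0.33 ± 0.19 that was -0.21 without control replicate 2. Many of these enzymes act in every secreting cell, endocrine cells included. Of 15 matrix proteases and inhibitors 9 were negative with a median of -0.28, which was -0.09 without control replicate 2 or without knockout replicate 1 and -0.14 without control replicate 1. Adamts4, an aggrecan-cleaving protease, had the smallest p at -0.995 ± 0.40. It measured 14.4 and 6.59 CPM in control and 4.47 and 6.10 CPM in knockout libraries, so control replicate 1 stood apart, and its value was -0.33 without that library.

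Signals that drive matrix production, the transforming growth factor beta (TGF-beta) and platelet-derived growth factor ligands, receptors and targets, were evenly split. Of 26 tested genes 13 were negative and 13 positive, with a median of -0.005. Tgfbi, a secreted adhesion protein induced by TGF-beta, stood at 10.8 ± 0.603 CPM in controls against 5.10 ± 1.02 CPM in knockouts (SD, n = 2 each), a log2 fold change of -1.08 ± 0.25 (unadjusted p = 0.00253). With each library left out, Tgfbi ran from -1.30 to -0.90. The thrombospondin gene Thbs1 stood at a log2 fold change of -0.68 ± 0.24 and the connective tissue growth factor gene Ccn2 at -1.03 ± 0.48, and without control replicate 2 they were at -0.24 and -0.20. The groups did not overlap for Tgfbi and Thbs1, and overlapped for Ccn2. In 6 of the 26 genes the knockout libraries lay below both controls, beside 15% of all genes, and in 2 above both, beside 15.3%. These 2, chosen here after their values were seen, were Smad7, an inhibitor of the pathway, at 0.21 ± 0.18 and Smad4, its shared transducer, at 0.07 ± 0.13. Smad7 was at 0.12 without knockout replicate 2 and Smad4 at 0.03 without control replicate 2. Macrophages express Tgfbi as well.

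Other mesenchymal markers showed no common direction. Of 12 tested further fibroblast and stellate markers 7 were negative (median -0.21, from -0.49 without knockout replicate 1 to 0.07 without control replicate 2), with Prrx1, a transcription factor of mesenchyme, at -1.14 ± 0.48, or -0.59 without control replicate 2. Of 22 further pericyte and smooth muscle markers 11 were negative and 11 positive, with a median of -0.06 that was -0.23 without knockout replicate 2. The endothelin receptor gene Ednrb stood at -0.52 ± 0.19, Ednra at -0.58 ± 0.26 and the adhesion molecule gene Mcam at -0.49 ± 0.23. Without control replicate 2, Ednrb was at -0.26 and Mcam at -0.17, while Ednra ran from -0.69 to -0.47 with each library left out. In 3 of these 22 genes, chosen here after their values were seen, the knockout libraries lay above both controls, and in 4 below both. Over all genes tested, these orders held for 15.3% and 15%. The 3 were the smooth muscle myosin gene Myh11 (0.36 ± 0.23, and 0.20 without knockout replicate 2), the transcription factor gene Ebf1 (0.41 ± 0.32, and 0.10 without knockout replicate 2) and the tropomyosin gene Tpm2 (0.28 ± 0.43, and 0.09 without control replicate 2). Endothelial cells also carry Ednrb and Mcam.

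Endothelial and macrophage markers also had mostly negative values. Endothelial cells, which make type IV collagen and laminins, had a negative value in 11 of 14 tested markers of 15, with a median of -0.26, and in 10 of the 14 the knockout libraries were below the controls without overlap, as in 15% of all genes. The median ran from -0.28 to -0.13 with each library left out, and was nearest 0 without knockout replicate 1. The summed CPM of the 15 was 660.3 and 660.7 in control and 560 and 673 in knockout libraries. This sum overlapped between the groups although 10 of the 14 single markers did not, and 3 of the 14 were highest in knockout replicate 2. The basement membrane sum was 245 and 264 CPM in control and 195 and 213 CPM in knockout libraries. A difference between these 2 sums was not tested. Pecam1 stood at -0.25 ± 0.15 and Cdh5, the cadherin of endothelial junctions, at -0.48 ± 0.21, and without control replicate 2 they were at -0.13 and -0.19. Macrophage markers were negative in all 11 tested of 15 (median -0.48, from -0.66 to -0.40 with each library left out). In 7 of the 11 the knockout libraries were below both controls, against 15% of all genes tested. At an unadjusted p under 0.05 (edgeR), 5 of the 11 were lower and 0 higher, where 1.96% of all genes were lower and 1.55% higher. Control replicate 1 was the highest library in 9 of the 11, as in 21.6% of all genes, and without it 8 were negative. The macrophage sum was 111 and 95.4 in control and 79.6 and 68.4 CPM in knockout libraries. Markers of mesothelium, the lining of the pancreas, gave 5 counts or fewer per library apart from Msln, and those of adipocytes 1 or 0 apart from Fabp4, with 2 genes of each list at 0 counts in every library. The part of these cell types in the lower matrix values was not tested.

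Acinar cells, the enzyme-secreting cells that surround islets and are carried over when islets are picked, differed most between the libraries. The summed CPM of 15 acinar genes was 3790 and 93.8 in control and 1701 and 8121 in knockout libraries. Control replicate 2, the library with the highest matrix levels, thus had the lowest acinar level, and all 15 genes were highest in knockout replicate 2. The opposite order did not hold in the other libraries. Knockout replicate 2 was above knockout replicate 1 both in the acinar sum and over all 33 genes (534 against 468 CPM). Ductal markers summed to 256 and 418 CPM in control and to 237 and 259 CPM in knockout libraries, also highest in control replicate 2. Endocrine markers, those of the labelled tissue, summed to 31821 and 27203 CPM in control and to 27532 and 32505 CPM in knockout libraries. The share of carry-over in the matrix differences was not tested. The sum over all 33 genes was 594 CPM in control replicate 1 and 704 CPM in control replicate 2, against 468 and 534 CPM in the knockout libraries. Both knockout sums were thus below control replicate 1 too, a comparison with a lone control library. Of the 594 CPM, Rgs5 gave 168, Col4a1 122 and Col4a2 52.9, so the sum speaks mainly for a few abundant genes.

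**Figure D4:**
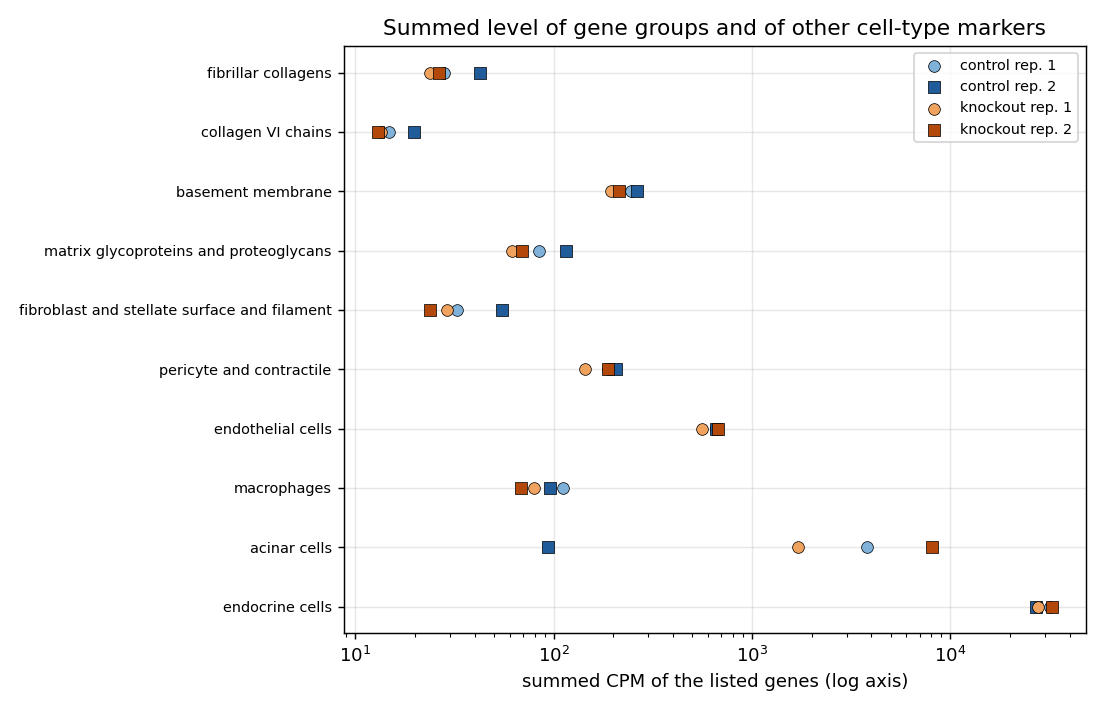
Summed CPM (log axis) of the genes of each role and of marker lists for other cell types in the 4 libraries, blue for control and orange for knockout, circles for replicate 1 and squares for replicate 2. Matrix groups are highest in control replicate 2, at 114.9 CPM for the glycoproteins and proteoglycans, where the acinar genes are lowest, at 93.8 CPM. Among the other libraries, knockout replicate 1 is lowest in both of these lists, at 61.7 and 1701 CPM.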

How the data were processed

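RNA of whole mouse islets was sequenced as 2 control and 2 Tspan7 knockout libraries. Per the labels' protocols, RNA from islets stored in Trizol was cleaned on columns, and a directional kit was used for the libraries. The authors deposited raw counts per gene. HISAT2, featureCounts and GRCm39 appear in the submitters' processing notes. Annotation, strand setting and treatment of multi-mapped reads were not given in the sources used here. Gene names came from GENCODE M21 (GRCm38), which matched 52403 of 52636 identifiers.

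Counts were analysed in edgeR 4.0.16 (R 4.3.3) with filterByExpr (minimum count 10), which kept 16924 genes, trimmed-mean scaling and a two-sided quasi-likelihood F test (robust) without covariates, adjusted over all genes. Limma 3.58.1 and DESeq2 1.42.0 were alternatives, and the fit was tested on simulated data. The 33 genes and all other lists were chosen with earlier results of these data known. From other lists, the genes named were among the 4 of smallest p whose mean log2 CPM reached 1, and a gene that meets this rule is not reported here. Dpt, Pdpn, Notch3, Abcc9, Kcnj8, Msln, Fabp4, Smad4, Smad7, Myh11, Ebf1 and Tpm2 were named after their values were seen. Counting intervals cover counting error only.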

Additional observations from a re-analysis of the deposited data

How the results depend on the processing

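Over all genes, edgeR called 0 higher and 1 lower. DESeq2 called 0 and 4, and with no low-count filter the counts were 15 and 47, of which 1 was a member (Vim). No member was called with the other scalings, limma-voom or a library left out. The labels share replicate numbers without saying that these mark a common source. With the replicate number as a replicate block, 1 gene was called higher and 5 lower, none of them a member. Over all genes tested, same-numbered libraries deviated in opposite directions (correlation -0.30). Among the 29 tested members, replicate 2 was above replicate 1 in 25 for control and in 21 for knockout. Over all genes tested, these orders held for 49.6% and 49.7%. The crossed replicate block, added after seeing the data, called 1 higher and 1 lower. With 1 library left out, the number called ran from 0 to 33 higher and from 1 to 15 lower. The lone library of a group was then assumed to vary like the others. The median of the 29 members ran from -0.64 to -0.23 over these fits, and from -0.54 to -0.43 over the other settings. Tagln, at 0.00027, turned to -0.0026 with DESeq2, to -0.0028 with median-of-ratios scaling and to -0.0036 with upper-quartile scaling. Signs turned with 1 library left out for Col1a1 (-1.04 to 0.26), Postn (-1.18 to 0.62), Thy1 (-0.78 to 0.27), Col1a2 (-0.18 to 0.25), Des (-0.34 to 0.21) and Tagln (-0.16 to 0.18). Depth limits the scarce genes, as 3 counts correspond to 0.312 to 0.398 CPM.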
